A study of Mus musculus with 2 samples.

Results

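The C-type lectin receptors of the Clec families were examined in single cells of the mouse colon lamina propria. The set was defined by symbol and holds 10 genes, Clec4a1, Clec4a2, Clec4a3, Clec4b1, Clec4d, Clec4e, Clec4n, Clec7a, Clec9a and Clec10a, among 31053 features. 9 of the 10 are features of both libraries. Clec7a, which encodes the beta-glucan receptor Dectin-1, is not a feature there and was not analysed here. The WT library was made from wild-type mice and the KO library from mice with a knockout of a long non-coding RNA, which the labels name LncRNA17Rik and the study lncLy6c. Per the study, the KO animals are a CRISPR-Cas9 whole-body line on the C57BL/6J background, the cells were sorted as CD11b+ from young adult males, and animals were pooled within a genotype. No other treatment is given in the labels. With 1 library per genotype, no difference below has a replicate check, and all intervals are 95% intervals of counting error only.

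C-type lectin receptors are surface proteins of myeloid cells that bind sugars or glycolipids of microbes and of dying host cells. Activating members, such as Mincle (Clec4e), its partner MCL (Clec4d) and Dectin-2 (Clec4n), signal through the adaptor chain encoded by Fcer1g to the kinase Syk and the scaffold Card9, and switch on cytokines and chemokines. Inhibitory members, such as DCIR (Clec4a2), carry a cytoplasmic motif that recruits the phosphatases encoded by Ptpn6 and Ptpn11. DNGR-1 (Clec9a) senses the exposed actin of dead cells on conventional type 1 dendritic cells (cDC1), and MGL1 (Clec10a) binds galactose-type sugars on macrophages and dendritic cells. In the colon these receptors stand between the immune cells of the lamina propria and the fungi and bacteria of the gut.

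After filtering, 2597 WT and 2514 KO cells remained, with 18994564 and 22331342 unique molecular identifiers (UMIs, 1 per captured molecule) and medians of 5073 and 6564.5 UMIs per cell. Cells were grouped into 21 clusters without any Clec gene, and 13 classes were named from marker genes. The labelled marker of the sort, Itgam (CD11b), had a UMI in 40.0% of WT and 57.8% of KO cells, and lymphocyte, epithelial and stromal classes were present in both libraries. The deleted gene could not be checked. The study's primers for it match 1 gene, 1700016P04Rik, which had 0 UMIs in both libraries, where 3 counts would correspond to 0.158 CPM in WT against 0.134 CPM in KO. A level is given below as UMIs per 1000000 UMIs of the class (CPM).

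The members lie in 3 places in the genome (GRCm38, GENCODE M21). From left to right, 7 Clec4 genes fill 368 kb of chromosome 6, namely Clec4a1 (chr6:122921848-122934619), Clec4a3 (chr6:122952515-122969875), Clec4b1 (chr6:123049962-123071555), Clec4a2 (chr6:123106428-123143999), Clec4n (chr6:123229843-123247021), Clec4d (chr6:123262111-123275265) and Clec4e (chr6:123281789-123289870). All are on the plus strand except Clec4e, whose 3' end lies 6524 bp from the 3' end of Clec4d, so the pair converges. Clec9a (chr6:129408862-129424763, plus strand) lies further along the chromosome beside Clec7a (chr6:129461591-129472779, minus strand), which this annotation classes as a polymorphic pseudogene. Clec10a (chr11:70156197-70170834, plus strand) stands alone. Clec9a overlaps Clec1b on the same strand. Of the 91-base words near the 3' ends of Clec10a transcripts, 5.36% also occur in Mgl2, and 3.37% of those of Clec4a2 occur in Clec4a4. Reads from such stretches cannot be told apart by sequence, and their effect on the counts was not tested.

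The sequences before the start sites of Clec4d, Clec4e and Clec9a are shown because the first pair had patterns over the cell classes that were close to each other, while Clec9a lay mainly in another class. They are the 250 bases before the RefSeq start (GRCm38.p6), read 5' to 3' on the strand of the gene. Capitals mark matches, on either strand, to a PU.1 core (GAGGAA), an AP-1 motif (TGANTCA) or a C/EBP motif (TTNNGNAA).

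Clec4d (chr6:123261857-123262106, plus strand): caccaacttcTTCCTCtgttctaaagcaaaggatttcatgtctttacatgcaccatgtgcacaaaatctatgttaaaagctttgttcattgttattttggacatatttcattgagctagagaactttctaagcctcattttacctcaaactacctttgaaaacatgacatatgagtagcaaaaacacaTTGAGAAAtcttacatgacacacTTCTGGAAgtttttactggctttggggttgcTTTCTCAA
Clec4e (chr6:123289872-123290121, minus strand): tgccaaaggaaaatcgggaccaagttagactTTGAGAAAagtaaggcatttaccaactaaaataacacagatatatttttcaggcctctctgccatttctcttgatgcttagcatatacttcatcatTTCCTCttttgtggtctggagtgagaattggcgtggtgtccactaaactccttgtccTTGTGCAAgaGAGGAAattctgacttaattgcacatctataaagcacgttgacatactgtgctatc
Clec9a (chr6:129408612-129408861, plus strand): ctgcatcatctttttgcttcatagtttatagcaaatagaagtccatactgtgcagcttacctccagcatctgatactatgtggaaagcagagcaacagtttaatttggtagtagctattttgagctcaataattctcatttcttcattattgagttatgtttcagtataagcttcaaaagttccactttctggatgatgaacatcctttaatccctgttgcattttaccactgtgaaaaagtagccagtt

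Clec4d holds 1 match to the PU.1 core and 3 to the C/EBP motif, Clec4e holds 2 and 2, and Clec9a holds none. The C/EBP match TTGAGAAA occurs in both Clec4d, 62 bases before its start, and Clec4e, 219 bases before its start. Of 32851 promoters of this length, 23.3% hold a PU.1 core, 36.8% a C/EBP motif and 6.75% an AP-1 motif, so such matches are common and say nothing of binding. Of the 10 members, 8 were matched in the table of RefSeq promoters used here.

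The first question was which cells of the colon carry each receptor. Clec4e and Clec4d peaked in the neutrophil-like cells of both libraries. Clec4e, the gene of Mincle, stood at 3478 CPM (3235 to 3733) in WT against 3576 CPM (3451 to 3703) in KO neutrophil-like cells, which numbered 83 and 266. Clec4d, the gene of MCL, stood at 2432 CPM (2230 to 2647) and 4382 CPM (4244 to 4522). Neutrophil-like cells were followed by inflammatory monocyte-like cells, at 835 and 1212 CPM for Clec4e and 303 and 665 CPM for Clec4d. For Clec4d in WT, the interval of monocyte-like cells (284 to 324) overlapped that of eosinophil-like cells, at 240 CPM (186 to 304). In WT the Clec4e level of monocyte-like cells did not differ beyond counting error from the 803 CPM of a cluster led by Retnla and Ccl24, and in KO that cluster, at 436 CPM, lay beside eosinophil-like cells at 406 CPM with overlapping intervals. The cluster led by Retnla and Ccl24 raised too few markers to be named and held 21 WT and 266 KO cells.

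**Figure D1:**
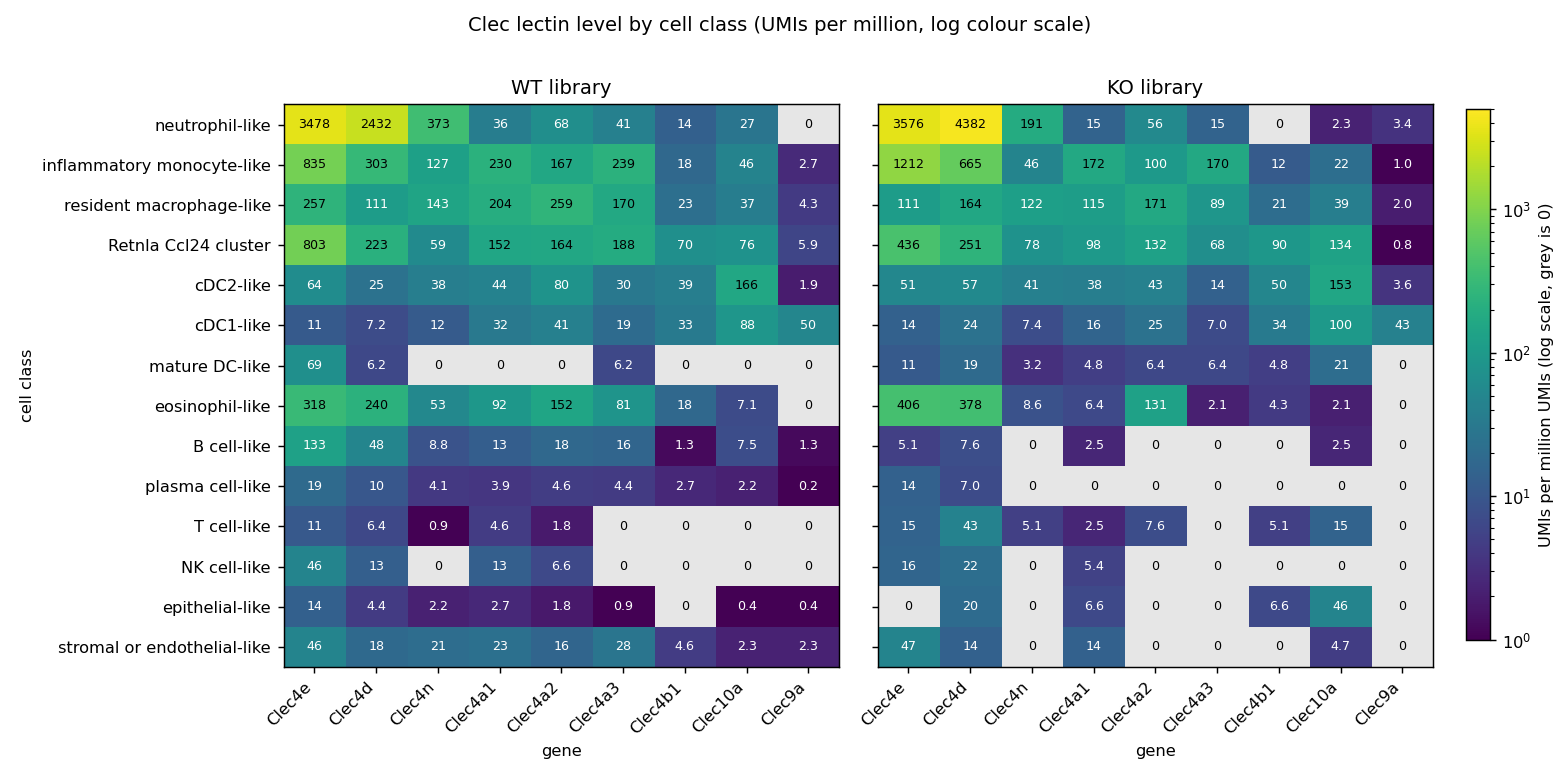
Level of the 9 measured lectin genes (columns) in 14 groups of cells (rows) of the WT (left) and KO (right) library, as CPM printed in each cell on a log colour scale with 0 in grey. Clec4e and Clec4d peak in neutrophil-like cells, at 3478 and 2432 in WT and 3576 and 4382 in KO, while Clec9a peaks in cDC1-like cells at 50.3 and 42.6.

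Clec4n, the gene of Dectin-2, was also highest in neutrophil-like cells, at 373 CPM in WT against 191 CPM in KO, followed by resident macrophage-like cells at 143 and 122 CPM. In WT, resident macrophage-like and monocyte-like cells (127 CPM) had overlapping intervals for this gene, and in KO they did not (46.4 CPM). The Clec4a genes had a different order, with monocytes and macrophages at the top. Clec4a1 stood at 230.2 CPM in WT against 172 CPM in KO monocyte-like cells and at 204 and 115 CPM in resident macrophage-like cells, and only in KO did these intervals not overlap. Clec4a3 stood at 239 and 170.3 CPM in monocyte-like cells and at 170.1 and 89.1 CPM in resident macrophage-like cells. Clec4a2, the inhibitory DCIR, was highest in resident macrophage-like cells of both libraries, at 259 CPM (237 to 284) in WT against 171 CPM (147 to 199) in KO.

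The remaining members were highest in dendritic cells or in the Retnla Ccl24 cluster. Clec9a stood at 50.3 CPM (40.5 to 61.8) in WT against 42.6 CPM (37.3 to 48.6) in KO cDC1-like cells, and these cells held 77.8% and 87.2% of all its UMIs. The next named class stood at 4.31 CPM in WT, in resident macrophage-like cells, and at 3.62 CPM in KO, in cDC2-like cells. Clec10a was highest in conventional type 2 dendritic (cDC2)-like cells, at 166 CPM (149 to 185) in WT against 153 CPM (142 to 163) in KO, and in KO the Retnla Ccl24 cluster overlapped them at 134 CPM (122 to 147). Clec4b1, which encodes the activating receptor DCAR, followed Clec10a. It stood at 38.7 and 50.4 CPM in cDC2-like cells, at 33.2 and 33.5 CPM in cDC1-like cells, and at 70.4 and 89.8 CPM in the Retnla Ccl24 cluster, the highest of all groups. In WT that cluster's Clec4b1 level rests on 12 UMIs and overlapped the cDC2-like level.

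**Figure D2:**
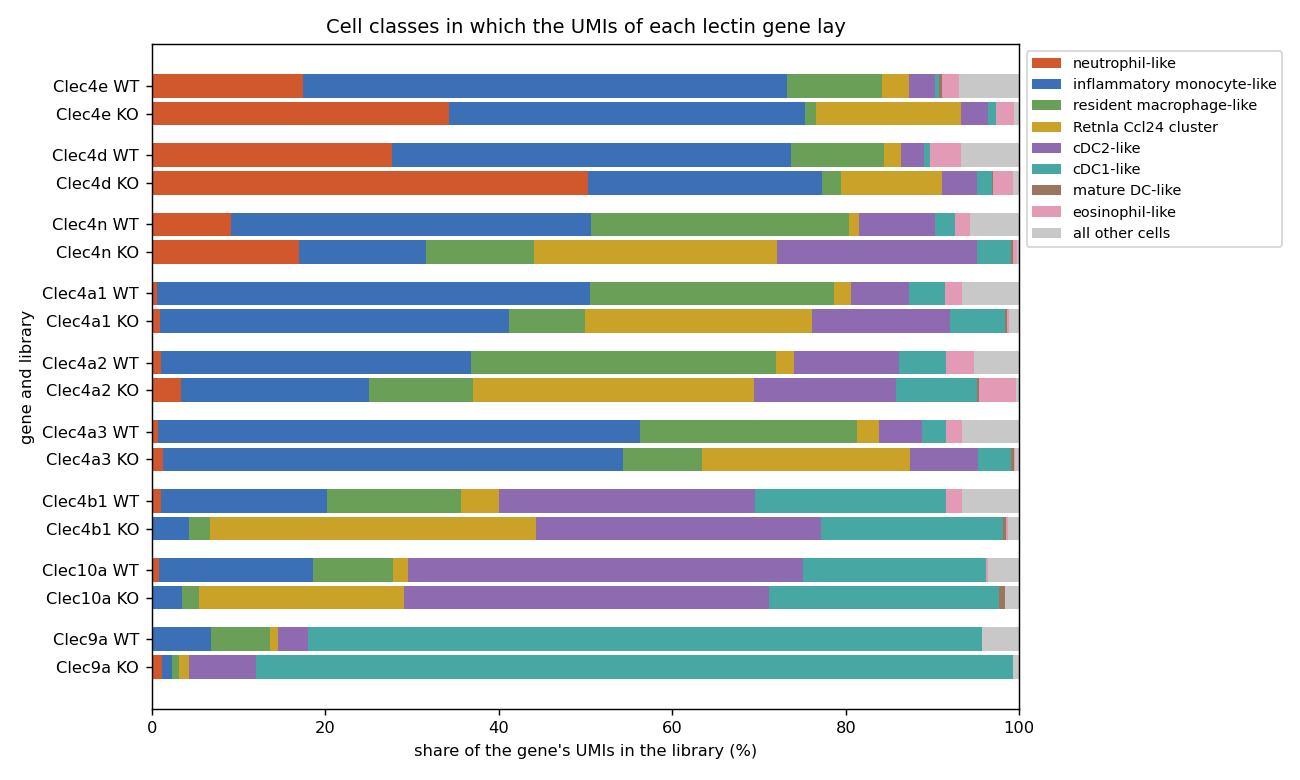
Share of the UMIs of each lectin gene (rows, WT above KO) that lay in each cell class, in percent of the gene's UMIs in that library. Clec4d UMIs lay mainly in monocyte-like cells in WT (45.9%) and in neutrophil-like cells in KO (50.3%), and Clec9a UMIs lay mainly in cDC1-like cells in both (77.8% and 87.2%).

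Whole-library levels carry the make-up of the library as well as the level within each class. Over all cells, Clec4d stood at 102 CPM in WT against 342 CPM in KO, Clec4e at 230.4 and 409.9 CPM, Clec10a at 39.6 and 89.6 CPM, Clec4b1 at 14.3 and 37.8 CPM and Clec9a at 6.16 and 11.6 CPM. Neutrophil-like cells made up 3.20% of WT and 10.6% of KO cells and cDC2-like cells 7.39% and 14.7%. The Clec4a genes did not share this direction, with Clec4a1 at 71.0 and 59.2 CPM, Clec4a2 at 72.1 and 64.5 CPM and Clec4a3 at 66.4 and 44.6 CPM. Clec4n stood at 47.2 and 44.1 CPM. Clec9a, at the lower whole-library level in WT, stood at 50.3 CPM in WT against 42.6 CPM in KO within cDC1-like cells, with a log2 KO to WT ratio of -0.24 (-0.60 to 0.13).

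The second question was whether the levels within a class differed between the WT and the KO library. A pair of member and class was called where the KO to WT ratio was at least 2-fold, with a prior of 1 CPM, and where at least 20 UMIs lay in both libraries together. Of 45 pairs over 5 classes, 40 had that many UMIs, 7 were lower in KO and 3 were higher. All 3 higher pairs were Clec4d, in inflammatory monocyte-like, cDC2-like and cDC1-like cells. The 7 lower pairs belonged to 5 members, Clec4a3 in cDC1-like, cDC2-like and neutrophil-like cells, Clec4a1 in neutrophil-like cells, Clec4n and Clec10a in monocyte-like cells and Clec4e in resident macrophage-like cells. With cells classed by marker score instead of by cluster, 0 of these 7 lower pairs and 2 of the 3 higher pairs met the rule, although all kept their direction.

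These counts stand beside the share of all genes that met the same rule. In neutrophil-like cells 2 of 6 members were lower, against 14.2% of all genes, and 0 were higher, against 6.19%. In inflammatory monocyte-like cells 2 of 8 were lower, against 7.38%, and 1 was higher, against 2.95%. In resident macrophage-like cells 1 of 8 was lower, against 9.02%, and 0 were higher, against 3.43%. In cDC2-like cells 1 of 9 was lower, against 6.36%, and 1 was higher, against 2.98%, and in cDC1-like cells 1 of 9 was lower, against 2.75%, and 1 was higher, against 2.89%. With 6 to 9 members per class, a single gene moves such a share by more than 10 percentage points, so nothing particular to the set is read from them. The median log2 ratio of the members was -0.62 in neutrophil-like, -0.53 in monocyte-like, -0.41 in resident macrophage-like, -0.23 in cDC1-like and -0.12 in cDC2-like cells, beside -0.21, -0.17, -0.22, -0.11 and -0.20 for all genes tested.

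**Figure D3:**
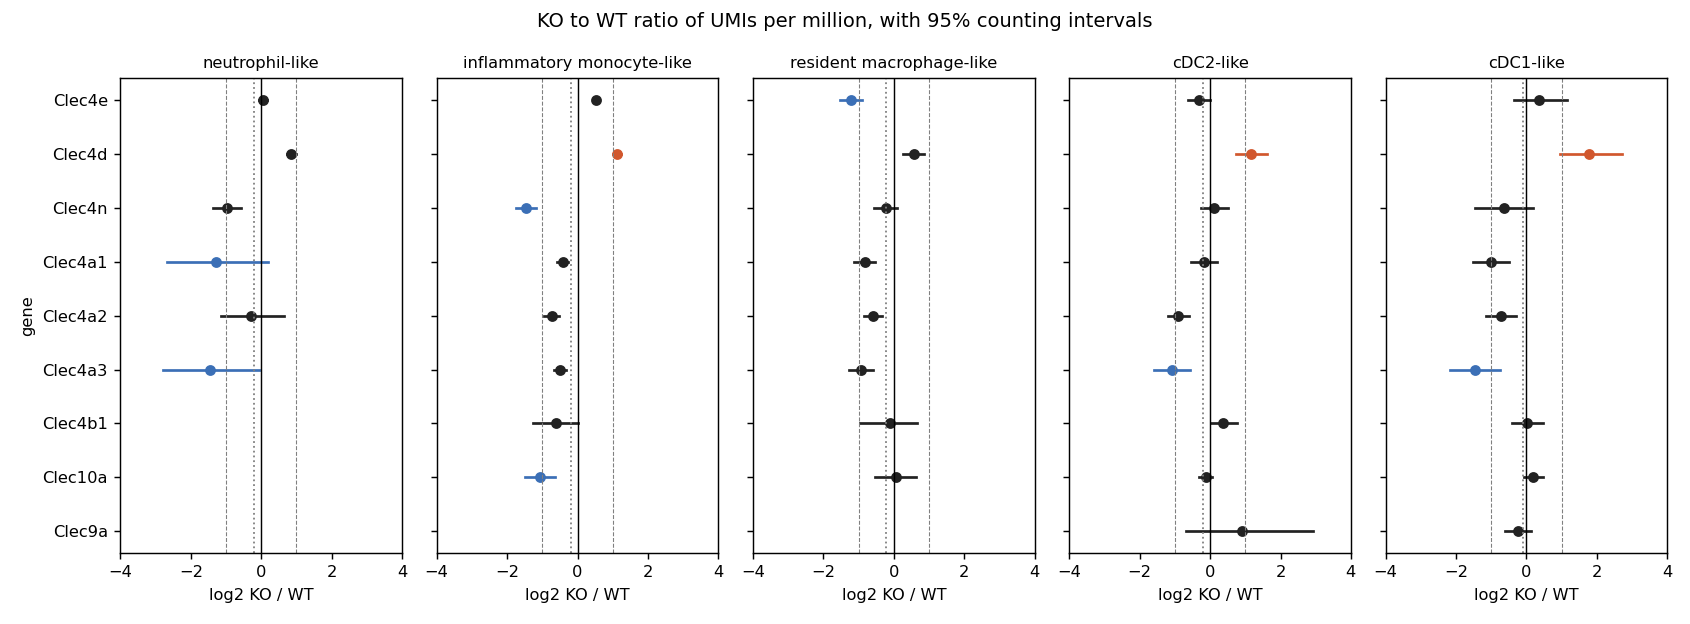
Log2 ratio of the KO to the WT level (horizontal axis) of each lectin gene (vertical axis) in 5 cell classes, for genes with at least 20 UMIs, with 95% counting intervals. Orange points are at least 2-fold higher and blue points at least 2-fold lower in KO under the call rule, dashed lines mark a 2-fold ratio and dotted lines the median of all genes. Clec4d lies right of 0 in all 5 classes, from 0.56 in resident macrophage-like to 1.77 in cDC1-like cells.

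Clec4d was the member with a higher KO level in every class compared. In neutrophil-like cells the log2 ratio was 0.85 (0.72 to 0.98), below the 2-fold rule but with an interval that excludes 0. The 8 neutrophil markers summed to 42553 CPM in WT against 78711 CPM in KO in the same cells, and their part was not tested. In inflammatory monocyte-like cells it was 1.13 (1.02 to 1.25). In cDC2-like cells Clec4d stood at 25.2 CPM in WT against 56.7 CPM in KO, for a log2 ratio of 1.17 (0.74 to 1.62). Resident macrophage-like cells, at 111 and 164 CPM, gave 0.56 (0.26 to 0.86). The ratio for Clec4d stayed above 0 under each of the 11 alternatives that could move it (12 for cDC1-like cells) in neutrophil-like (0.71 to 1.05), cDC2-like (0.92 to 1.60), cDC1-like (0.36 to 2.57) and resident macrophage-like cells (0.49 to 1.33).

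The cDC1-like value rests on few cells. Clec4d had 13 UMIs in WT and 129 in KO cDC1-like cells, or 7.19 and 24.4 CPM, and the log2 ratio was 1.77 (0.94 to 2.71). In KO, 5 of 311 cells held 44.2% of those UMIs and 1 cell held 25. In the main cDC1-like cluster, with 133 WT and 211 KO cells, the ratio was 0.41 (-0.74 to 1.69), and in the cycling cluster, with 24 and 100 cells, it was 2.33 (0.93 to 4.23). Summed neutrophil markers stood at 12.2 CPM in WT against 168 CPM in KO cDC1-like cells, with 7 of 8 markers detected in KO and Ly6g at 0, and their part in the Clec4d value was not tested. In cDC2-like cells, where Clec4d was also higher, the same sum was 36.8 and 32.6 CPM, and in resident macrophage-like cells it was 313 and 239.6 CPM.

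Outside monocyte-like cells, no interval of Clec4e lay above 0. In neutrophil-like cells its log2 ratio was 0.04 (-0.07 to 0.16), in cDC1-like cells 0.36 (-0.37 to 1.15) and in cDC2-like cells -0.31 (-0.62 to -0.00376). In resident macrophage-like cells Clec4e stood at 257 CPM (235 to 281) in WT against 111 CPM (91.3 to 133) in KO, for a log2 ratio of -1.21 (-1.52 to -0.91). That direction turned when each library was clustered alone, where the ratio was 0.78, and the other 10 alternatives that could move it kept it below 0. Summed inflammatory monocyte markers, all 10 of them detected in both libraries, stood at 1077 CPM in WT against 371 CPM in KO resident macrophage-like cells, and their part in this value and in those of the Clec4a genes of the same cells was not tested.

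The number of Clec4d UMIs per Clec4e UMI compares the neighbours within the same cells, without reference to the other genes of the library. It was 0.699 (0.625 to 0.782) in WT against 1.23 (1.17 to 1.29) in KO neutrophil-like cells. In inflammatory monocyte-like cells it was 0.363 (0.336 to 0.393) and 0.548 (0.519 to 0.579), and in resident macrophage-like cells 0.433 (0.366 to 0.511) and 1.48 (1.16 to 1.90). These intervals did not overlap between the libraries, and the same held for cDC2-like cells at 0.394 and 1.10 and for the Retnla Ccl24 cluster at 0.277 and 0.575. In cDC1-like cells, at 0.650 (0.297 to 1.37) and 1.72 (1.28 to 2.32), and in eosinophil-like cells, at 0.756 and 0.931, the intervals overlapped. Within the Chil3 Ace cluster of monocyte-like cells the ratio was 0.518 (0.411 to 0.650) and 0.523 (0.493 to 0.554), and within the Ly6i Cxcl9 cluster 0.349 (0.321 to 0.379) and 0.454 (0.362 to 0.566), with overlapping intervals in both. In the remaining monocyte-like cells it was 0.304 (0.177 to 0.502) and 1.04 (0.858 to 1.25), which do not overlap. In the main cDC1-like cluster it was 0.750 and 0.735, and in the cycling cluster 0.50 in WT, from 4 and 8 UMIs, against 2.54 (1.75 to 3.74) in KO. Taken whole, these 7 groups, which are the 5 classes compared and 2 others picked after their values were seen, each had the higher ratio in KO. They come from the same pair of libraries and are not replicates. Among the groups with fewer UMIs the ratio was lower in KO plasma cell-like cells, at 0.545 and 0.50, and in KO stromal or endothelial-like cells, at 0.40 and 0.30, with 1 and 3 Clec4d UMIs in KO. Since 3' capture differs between transcripts, the size of the ratio says nothing of the relative number of receptors.

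**Figure D4:**
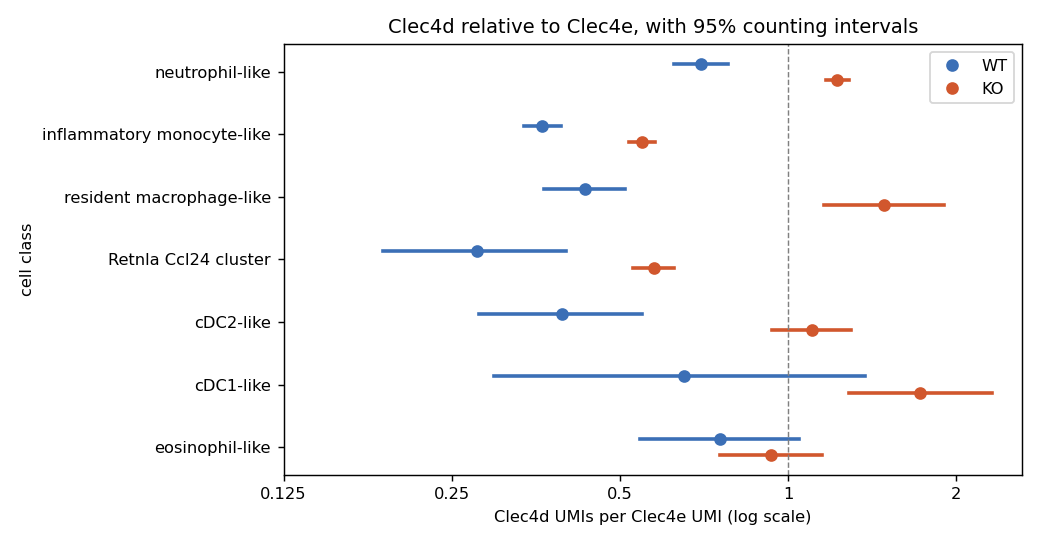
Clec4d UMIs per Clec4e UMI (horizontal log axis) in 7 groups of cells (vertical axis) of the WT (blue) and KO (orange) library, with 95% counting intervals and a dashed line at 1. The KO value is the higher in each group shown, for example 1.48 against 0.433 in resident macrophage-like cells, and the intervals overlap in cDC1-like and eosinophil-like cells.

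The libraries filled the 2 largest clusters of the inflammatory monocyte-like class unequally. The cluster led by Ly6i and Cxcl9 held 421 WT and 64 KO cells and the cluster led by Chil3 and Ace 30 and 264. Within the first, Clec4d stood at 288 CPM in WT against 253 CPM in KO, for a log2 ratio of -0.19 (-0.48 to 0.10), so the direction of the class was not seen there. Within the second it stood at 570.4 and 714 CPM, a ratio of 0.32 (0.05 to 0.61). The remaining 16 WT and 38 KO cells of the class had Clec4d at 180.3 and 973 CPM, from 21 and 231 UMIs, and a ratio of 2.43 (1.79 to 3.15). The ratio was thus below 0 in one cluster, with an interval that includes 0, and above 0 in the other cells of the class, and the share of the class value that comes from the unequal filling was not tested. Summed neutrophil markers were 369 CPM in WT against 824 CPM in KO monocyte-like cells, with Ly6g at 0 in both, and their part was not tested.

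Clec4e behaved alike within monocytes. Beside its class ratio of 0.54 (0.46 to 0.61), it stood at 825 and 558 CPM in the Ly6i Cxcl9 cluster, a ratio of -0.56 (-0.76 to -0.38). The Chil3 Ace cluster had 1102 and 1367 CPM, a ratio of 0.31 (0.12 to 0.51), and the remaining cells 592 and 939 CPM, a ratio of 0.67 (0.27 to 1.08). The lower Clec4n and Clec10a of KO monocyte-like cells also depended on the clusters. Clec4n stood at 127 CPM in WT against 46.4 CPM in KO over the class, a ratio of -1.45 (-1.74 to -1.17). Its ratio was -0.83 (-1.39 to -0.32) in the Ly6i Cxcl9 cluster and -0.13 (-1.24 to 1.24) in the Chil3 Ace cluster, where WT had 7 UMIs. In the remaining cells it was -0.65 (-1.42 to 0.13). Over the class, resident macrophage markers summed to 3827 CPM in WT against 1586 CPM in KO, and their part in the Clec4n value was not tested. Clec10a stood at 45.8 and 21.9 CPM over the class, a ratio of -1.06 (-1.51 to -0.63), but at 50.7 and 57.9 CPM in the Ly6i Cxcl9 cluster, a ratio of 0.19 (-0.46 to 0.80). In the Chil3 Ace cluster it had 1 UMI in WT and 35 in KO, a ratio of 1.58 (-0.99 to 6.93), and in the remaining cells 1 and 6 UMIs, a ratio of 1.56 (-1.49 to 7.08). No cluster of the class thus had the lower KO level of Clec10a that the class as a whole had, and all 3 intervals include 0.

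**Figure D5:**
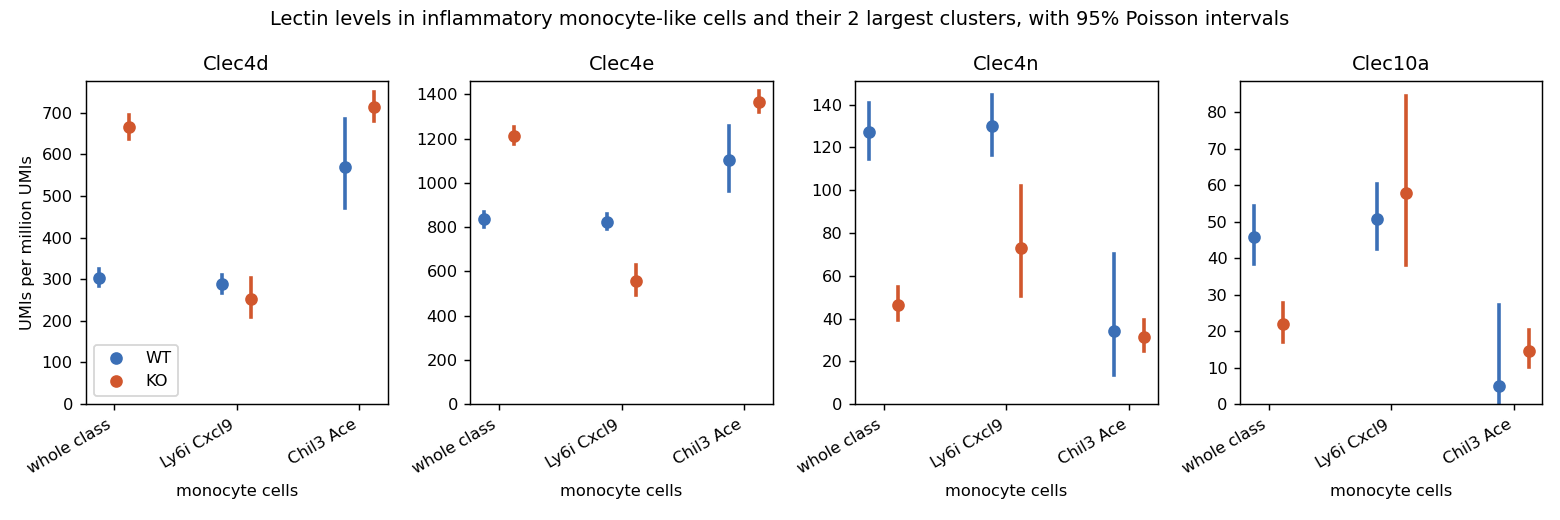
Level of 4 lectin genes (CPM, with 95% Poisson intervals) in all inflammatory monocyte-like cells and in each of their 2 largest clusters, for the WT (blue) and KO (orange) library. Over the class Clec4d is higher and Clec4n and Clec10a are lower in KO, while in the Ly6i Cxcl9 cluster, which holds 421 WT and 64 KO cells, the intervals of Clec4d and Clec10a overlap between the libraries.

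The Clec4a genes, which lie in the same stretch of chromosome 6 and encode DCIR family receptors, had lower KO levels in most classes. In resident macrophage-like cells, Clec4a1 stood at 204 and 115 CPM, with a log2 ratio of -0.83 (-1.14 to -0.52), Clec4a2 at 259 and 171 CPM, a ratio of -0.60 (-0.86 to -0.35), and Clec4a3 at 170.1 and 89.1 CPM, a ratio of -0.93 (-1.29 to -0.59). The Retnla Ccl24 cluster, with 21 WT cells, had Clec4a3 at 188 and 67.7 CPM, a ratio of -1.47 (-2.01 to -0.89). There Clec4a1 gave -0.64 (-1.21 to -0.00263) and Clec4a2 -0.31 (-0.86 to 0.29), which includes 0. In that cluster resident macrophage markers summed to 5196 and 2537 CPM and inflammatory monocyte markers to 2956 and 1748 CPM. The part of these markers was not tested. In resident macrophage-like cells none of the 3 met the 2-fold rule, but each interval lay below 0 and below the median of all genes at -0.22. In monocyte-like cells the ratios were -0.42 (-0.59 to -0.26) for Clec4a1, -0.73 (-0.94 to -0.53) for Clec4a2 and -0.49 (-0.66 to -0.33) for Clec4a3. Within the Ly6i Cxcl9 cluster they were -0.82 (-1.22 to -0.44), -0.18 (-0.56 to 0.18) and -0.86 (-1.26 to -0.47), and within the Chil3 Ace cluster -0.27 (-0.72 to 0.21), -0.23 (-0.85 to 0.46) and -0.43 (-0.85 to 0.02), with both intervals of Clec4a2 including 0. In the remaining 16 WT and 38 KO cells they were 0.06 (-0.84 to 1.02), -1.57 (-2.82 to -0.37) and -1.49 (-2.31 to -0.68), from 11 to 34 UMIs a library and gene. The alternatives that could move these ratios, 11 for resident macrophage-like and 13 for monocyte-like cells, kept the 3 genes lower in KO, other than Clec4a1 in monocyte-like cells with 4000 variable genes, at 0.02. In monocyte-like cells the resident macrophage markers summed to 3827 CPM in WT against 1586 CPM in KO, and their part was not tested.

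In dendritic cells the Clec4a genes were less abundant and the same direction held for most. Clec4a3 stood at 30.01 CPM in WT against 14.1 CPM in KO cDC2-like cells, for a log2 ratio of -1.09 (-1.59 to -0.58). Its cDC1-like levels were 19.4 and 7.01 CPM, a ratio of -1.46 (-2.17 to -0.76). Clec4a2 gave -0.91 (-1.20 to -0.62) in cDC2-like and -0.72 (-1.14 to -0.29) in cDC1-like cells, though the latter was 0.09 both with a stricter cell filter and with 4000 variable genes. The Clec4a3 ratio in cDC2-like cells was -0.03 at Leiden resolution 2. Clec4a1 gave -1.003 (-1.51 to -0.49) in cDC1-like cells, where the prior kept it short of the call, and -0.19 (-0.55 to 0.18) in cDC2-like cells. Summed inflammatory monocyte markers moved the same way, at 1901 and 847 CPM in cDC2-like and 1882 and 806 CPM in cDC1-like cells, and their part was not tested. The resident macrophage markers summed to 271 and 74.3 CPM in cDC2-like cells and to 107 and 195 CPM in cDC1-like cells.

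In neutrophil-like cells the called Clec4a genes rest on very few UMIs. Clec4a3 had 9 UMIs in WT and 13 in KO, for a log2 ratio of -1.46 (-2.80 to -0.06), and Clec4a1 had 8 and 13, a ratio of -1.29 (-2.67 to 0.18), with 8 WT UMIs in 4 cells. At a Leiden resolution of 0.5 the ratios were 0.39 and 0.17, so no direction is drawn for either. Resident macrophage markers summed to 1055 CPM in WT against 386 CPM in KO neutrophil-like cells. Clec4n is better counted in these cells, with 82 UMIs in WT and 167 in KO, or 373 CPM (296 to 463) and 191 CPM (163 to 222). Its log2 ratio was -0.97 (-1.36 to -0.57), just short of the rule, and ran from -1.12 to -0.76 under the 11 alternatives that could move it.

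Clec9a, Clec10a and Clec4b1 did not meet the 2-fold rule in cDC1-like or cDC2-like cells. Clec10a in cDC2-like cells had a log2 ratio of -0.12 (-0.31 to 0.06), and in cDC1-like cells, at 87.9 CPM in WT against 100.4 CPM in KO, 0.19 (-0.07 to 0.46). The cDC2 markers summed to 849 and 667 CPM in cDC1-like cells, beside 1413 and 1298.5 CPM in cDC2-like cells. Their part in the Clec10a and Clec4b1 values of cDC1-like cells was not tested. In the cycling cDC1-like cluster Clec10a stood at 51.4 and 89.9 CPM, a ratio of 0.81 (0.21 to 1.47), and in the main cDC1-like cluster its ratio was 0.12 (-0.18 to 0.42). Clec10a in cDC1-like cells also depended on how cells were classed, with -2.51 by marker score and 1.55 with 4000 variable genes. Clec4b1 had a ratio of 0.02 (-0.41 to 0.46) in cDC1-like cells and of 0.38 (0.02 to 0.76) in cDC2-like cells, where the 11 alternatives that could move it gave 0.31 to 1.10. Clec9a in the main cDC1-like cluster stood at 51.4 CPM in WT against 51.0 CPM in KO, a ratio of -0.01 (-0.44 to 0.43), and in the cycling cluster at 47.3 and 33.4 CPM, a ratio of -0.50 (-1.18 to 0.23).

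The share of cells with a UMI depends on depth, and free RNA gives such UMIs in cells that lack the gene. T cell-like cells, with median depths of 5351 UMIs in WT and 5844 in KO, serve as the background. There 3.55% of 169 WT and 6.35% of 63 KO cells had a Clec4d UMI, 5.33% and 4.76% a Clec4e UMI, and 0 cells of either library a Clec9a or Clec4a3 UMI, which allows shares of up to 2.16% and 5.69% (exact Clopper-Pearson). Clec4d UMIs were found in 93.98% of WT and 99.6% of KO neutrophil-like cells, with median depths of 2287 and 3015 UMIs, and in 64.0% and 82.5% of monocyte-like cells, with 6051 and 9214 UMIs. Both classes lay far above the background. Clec9a UMIs occurred in 26.1% (19.4 to 33.7%) of WT against 32.5% (27.3 to 38.0%) of KO cDC1-like cells, an order opposite to the level, so none is read from it. Clec9a in neutrophil-like cells, at 0% and 0.752% of cells, did not exceed the background bound.

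Cells were also thinned to 1000 UMIs each, with shallower cells left out, which kept 79 WT and 257 KO neutrophil-like cells, 460 and 353 monocyte-like cells and 277 and 119 resident macrophage-like cells. The share with a Clec4d UMI was then 84.8% (75.0 to 91.9%) and 96.1% (93.0 to 98.1%) in neutrophil-like cells and 25.9% (21.9 to 30.1%) and 42.8% (37.6 to 48.1%) in monocyte-like cells. The thinned share of Clec4e in resident macrophage-like cells was 19.1% (14.7 to 24.3%) in WT against 7.56% (3.52 to 13.9%) in KO, beside 35.2% and 24.2% before thinning. The thinned share of Clec4n was 26.6% (17.3 to 37.7%) and 11.7% (8.02 to 16.2%) in neutrophil-like cells and 12.8% (9.91 to 16.2%) and 5.10% (3.05 to 7.94%) in monocyte-like cells, beside 44.6%, 25.6%, 35.1% and 22.4% before thinning. These orders were the same as those of the levels. The thinned shares of Clec4d in cDC2-like cells, 3.68% and 5.15%, had overlapping intervals.

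At this common depth, members were often found in the same cell in neutrophils and monocytes. At least 2 members were detected in 84.8% of WT and 87.2% of KO neutrophil-like cells, in 45.4% and 51.6% of monocyte-like cells, in 28.2% and 17.6% of resident macrophage-like cells, in 5.79% and 5.42% of cDC2-like cells and in 0.592% and 0% of T cell-like cells. Clec4d and Clec4e were detected together in 77.2% of WT and 85.2% of KO neutrophil-like cells and in 15.2% and 28.9% of monocyte-like cells. The products of the shares of each gene alone were 69.8%, 84.5%, 12.8% and 26.9%, each below the joint share. Resident macrophage-like cells held both in 2.89% of WT and 2.52% of KO cells, from 8 and 3 cells, beside products of 1.66% and 0.763%. In cDC2-like cells the joint shares were 1.05% and 0.542%, from 2 cells in each library, beside 0.175% and 0.209%. Whether the genes depend on each other within a cell was not tested. In cDC1-like cells no thinned cell held both. The products there were 0.00843% of 154 WT and 0.0325% of 304 KO cells, too low for a joint cell to be expected, so nothing is read from its absence.

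The genes whose pattern over the classes was most like that of each member were then listed, by Pearson's r of log2(CPM + 10) over 20 profiles of class and library with at least 50 cells and 9485 genes with at least 200 UMIs. The profiles share 2 libraries, so r is a description. Clec4d was closest to Acod1, which encodes the itaconate-producing enzyme, with r = 0.966, to Clec4e with r = 0.963 and to Kcnj2. Clec4e was closest to Clec4d, Igsf6 and Kcnj2. Clec4n was closest to Cd14, a co-receptor for lipopolysaccharide, with r = 0.942, and to Nlrp3 and Smox. Clec4a1 and Clec4a3 were closest to each other with r = 0.979, followed by Ms4a6d and Zeb2os for Clec4a1 and by Fcgr1, a receptor for immunoglobulin G, and Tcirg1 for Clec4a3. Clec4a2 was closest to Csf1r, the receptor for the macrophage growth factor M-CSF, with r = 0.952, Tgfbi and Sirpa.

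Clec9a was closest to A530099J19Rik with r = 0.976, to Xcr1, the chemokine receptor of cDC1, with r = 0.952, and to Sept3. Clec10a was closest to Cd209a, a DC-SIGN-related lectin, with r = 0.939, to Clec4b1 with r = 0.935 and to Rtn1, and Clec4b1 to Rtl5, Clec10a and Mgl2. Over the other pairs of members r ran from -0.28 for Clec4e and Clec9a to 0.85 for Clec4a1 and Clec4a2. Between Clec4d, Clec4e and Clec4n r was at least 0.805, and between the Clec4a genes at least 0.818. Across these sets and the pair of Clec4b1 and Clec10a, r was at most 0.764, for Clec4a2 and Clec4n. Clec4a1 had r = 0.62 with Clec4b1 and r = 0.52 with Clec10a. Clec9a was not close to any other member, with its highest values at 0.48 with Clec10a and 0.40 with Clec4b1.

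Lists of genes around these receptors were read by the same 2-fold rule. Of the activating signalling chain, 14 of 14 genes had enough UMIs in resident macrophage-like, monocyte-like, cDC2-like and cDC1-like cells, and 1 was called lower in monocyte-like cells (7.38% of all genes), 1 higher in cDC1-like cells (2.89%) and 0 in the other classes. Fcer1g, the adaptor chain, stood at 1389.5 CPM in WT against 1891 CPM in KO monocyte-like cells (log2 ratio 0.44) and at 1113 and 1152 CPM in resident macrophage-like cells. Syk stood at 461 and 390 CPM and at 373 and 271 CPM, and Card9 at 9.58 and 8.71 CPM and at 9.15 and 9.90 CPM in the same classes. Src was the called gene of both classes and ran in opposite directions, at 10.9 and 4.52 CPM in monocyte-like cells and at 2.21 and 6.82 CPM, from 4 and 36 UMIs, in cDC1-like cells. In neutrophil-like cells Fcer1g was the only called gene of the 11 with enough UMIs, at 964 and 1936 CPM, a ratio of 1.01 (0.80 to 1.22), where 6.19% of all genes were called higher. Ptpn6, which encodes the phosphatase SHP-1, stood at 131 and 66.3 CPM in resident macrophage-like cells, a ratio of -0.98 (-1.39 to -0.58). Its cDC2-like levels were 135 and 67.6 CPM, a ratio of -0.999 (-1.23 to -0.77), just short of the call. In the other classes Ptpn6 differed less, with ratios of -0.42 (-0.63 to -0.21) in cDC1-like, -0.29 (-0.50 to -0.09) in monocyte-like and -0.04 (-0.60 to 0.56) in neutrophil-like cells. Ptpn11 gave 0.42 (0.12 to 0.74) in cDC1-like, 0.18 (-0.37 to 0.72) in resident macrophage-like, 0.13 (-0.18 to 0.45) in cDC2-like and 0.10 (-0.25 to 0.44) in monocyte-like cells. Of the 3 inhibitory phosphatases only Ptpn11 was called, lower in neutrophil-like cells, where 14.2% of all genes were. That ratio was -1.41 (-2.82 to 0.09), from 8 and 12 UMIs. Inpp5d, the other gene of this list, gave -0.81 (-1.03 to -0.59) in monocyte-like and -0.77 (-1.08 to -0.47) in resident macrophage-like cells. Its ratio was -0.82 (-1.03 to -0.60) in cDC2-like and -0.30 (-0.73 to 0.15) in neutrophil-like cells.

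Among products known to lie downstream of Dectin and Mincle signalling, 8 of 13 were higher and 2 lower in KO resident macrophage-like cells, where 3.43% of all genes were higher and 9.02% lower. Ccl4 stood at 1077 and 12312.5 CPM, Ccl3 at 421 and 3309.8 CPM and Tnf at 291 and 1527 CPM, while Il12b had 90 UMIs in WT and 1 in KO, a log2 ratio of -5.61 (-10.93 to -3.10). In monocyte-like cells 5 of 12 were higher and 0 lower, beside 2.95% and 7.38% of all genes, with Ccl3 at 343 and 1228 CPM, Cxcl1 at 355 and 1087 CPM, Ccl4 at 337 and 980.1 CPM and Il6 at 94.4 and 234 CPM. Neutrophil markers summed to 369 and 824 CPM in the same cells. The largest clusters of this class held 421 WT and 64 KO cells and 30 and 264 cells. The part of either was not tested. In cDC2-like cells 2 of 13 were higher, Il12b at 10.6 and 55.6 CPM and Ccl4 at 95.8 and 269 CPM, beside 2.98% of all genes. In cDC1-like cells 2 of 13 were higher, beside 2.89% of all genes, Il12b at 3.87 and 55.3 CPM and Cxcl2 at 208 and 447 CPM. Neutrophil markers summed to 12.2 and 168 CPM in those cells, and their part was not tested. In neutrophil-like cells 4 of 12 were lower and 1 higher, beside 14.2% and 6.19% of all genes. The median log2 ratio of this list was 1.44 in resident macrophage-like, 0.20 in monocyte-like, -0.18 in cDC2-like, 0.32 in cDC1-like and -0.54 in neutrophil-like cells, beside -0.22, -0.17, -0.20, -0.11 and -0.21 for all genes. Many other receptors use these products, and a part for the lectins was not tested.

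Among other C-type lectin receptors, 4 of 7 were lower in KO monocyte-like cells, where 7.38% of all genes were. They were Mgl2, the paralogue of Clec10a, at 35.6 and 4.19 CPM, Klrb1b at 11.3 and 1.94 CPM, the mannose receptor gene Mrc1 at 102 and 21.9 CPM and the activation antigen gene Cd69 at 134 and 57.4 CPM. Mrc1 was also a marker used to name resident macrophages, and the sum of those 9 markers was 3827 CPM in WT against 1586 CPM in KO monocyte-like cells, whose part was not tested. In resident macrophage-like cells 2 of 6 were higher, beside 3.43% of all genes, Mgl2 at 61.9 and 270.3 CPM and Cd209a at 17.2 and 42.6 CPM, whereas Clec10a stood there at 37.1 and 38.6 CPM. In cDC2-like cells 3 of 13 were lower and 2 higher, beside 6.36% and 2.98% of all genes, among them Klra2 at 13.1 and 2.35 CPM and Olr1 at 5.81 and 1.45 CPM, and Cd209e and Cd209c, which had 2 and 4 UMIs in WT and 24 and 39 in KO, with log2 ratios of 2.17 (0.16 to 5.29) and 1.87 (0.40 to 3.81). In cDC1-like cells 1 of 11 was lower and 2 were higher, beside 2.75% and 2.89% of all genes. Klrb1b was higher there, unlike in monocyte-like cells, at 34.8 and 73.9 CPM, a ratio of 1.09 (0.70 to 1.49). Cd209b was also higher, from 1 and 35 UMIs, and Klra2 was lower, at 8.29 and 3.03 CPM. In neutrophil-like cells 1 of 4 was lower, Cd69 at 423 and 79.9 CPM, beside 14.2% of all genes. Of the other Clec genes, 21 of 22 were features, and 4 to 7 had enough UMIs in a class. Clec2d, the ligand of an inhibitory natural killer cell receptor, was the called gene of monocyte-like cells, at 154 and 69.3 CPM, where 7.38% of all genes were called lower, and of neutrophil-like cells, at 486 and 226 CPM, where 14.2% were. Clec5a was called higher in cDC1-like cells, where 2.89% of all genes were, from 2 and 23 UMIs with a log2 ratio of 1.98 (-0.04 to 5.11). None was called in resident macrophage-like or cDC2-like cells.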

How the data were processed

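The deposited counts are raw UMIs of each gene in each barcode, from 1 WT and 1 KO library of 10x Genomics 3' chemistry. Per the file headers the authors made these counts with Cell Ranger 3.0.2, and the submitters' processing notes name Seurat 4 and mm10, which is GRCm38. The study states more cells than the 3185 WT and 3020 KO barcodes deposited. Cells with 200 to 6000 detected genes and at most 15% mitochondrial UMIs were kept, which removed 18.5% of WT and 16.8% of KO barcodes. The libraries shared 1 barcode, which was not among the kept cells. Doublets were not removed beyond the gene limit. The study clustered with DESC, and the classes here were rebuilt, so they can differ from the study's.

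Each cell was scaled to 10000 UMIs on a log scale, and 2000 variable genes, 30 components, 15 neighbours and Leiden clustering at resolution 1 were used (Python 3.11.15, scanpy 1.11.5, leidenalg 0.10.2, scikit-learn 1.9.0). No Clec gene and not Mgl2 was a variable gene or a marker. Each cluster was named for the class of which it raised the largest share of markers, if at least 3 and if its top 10 genes did not hold more markers of another class. A marker was raised at 2-fold the level of the remaining cells (prior 10 CPM) and with a UMI in 10% of the cluster. This left 4 of 21 clusters without a name. For each class and library UMIs were added up, with exact Poisson intervals for levels, exact conditional binomial intervals for ratios (scipy 1.17.1) and exact Clopper-Pearson intervals for shares. No test between genotypes was made, since cells are not replicates. The intervals and calls were tested on simulated data, with Poisson counts of known fold changes. Such counts carry no spread between cells or animals, so the simulation cannot show how the intervals hold under that spread.

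The text names all members, the 3 genes most like each member, list genes past the 2-fold rule (the 4 largest per list in resident macrophage-like, monocyte-like and cDC2-like cells) and Fcer1g, Syk, Card9 and Ptpn6. List genes named in cDC1-like or neutrophil-like cells, Ptpn11 in all classes and Inpp5d wherever it is named were added after their values were seen. The members and lists were chosen with earlier results of these data known. 14 other settings were listed with the design, and 2 more were added after seeing these data. The leading genes of the smallest monocyte cluster are not reported here.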

Additional observations from a re-analysis of the deposited data

How the results depend on the processing

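The named class with the highest level was the same for 16 to 18 of the 18 combinations of member and library under every alternative that could move it. The Retnla Ccl24 cluster has no class name and was left out of this comparison. Its place as the highest group for Clec4b1 was therefore not checked under the alternatives. The number of lower pairs, 7, became 3 with a stricter cell filter, with Leiden resolution 0.5, with each library clustered alone, with cells classed by marker score and with a prior of 10 CPM, 2 with Leiden resolution 2 and with 4000 variable genes, and 4 when ratios were centred on the all-gene median. Some of these totals include pairs that the main setting did not call. Of the 7 lower pairs themselves, 3 kept the call with a stricter cell filter, with a prior of 10 CPM and with each cell weighing the same. With each library clustered alone, 2 kept it. Only 1 did at Leiden resolution 0.5, where 5 kept their direction, and 0 did by marker score. The number of higher pairs, 3, became 5 with 4000 variable genes, 7 with each library clustered alone and 1 with only the largest cluster of each class. Of the 3 higher pairs themselves, 2, 3 and 1 kept the call under these settings. Of 718 ratio values under alternatives, 198 could not change by construction (no cell removed, another minimum of UMIs, or a class that a cluster setting left whole). Of the other 520, 403 moved by no more than the counting interval, 110 moved further and 7 turned a called direction. The latter were Clec4a1 (0.17) and Clec4a3 (0.39) in neutrophil-like cells at resolution 0.5, Clec10a in monocyte-like cells with 4000 variable genes (0.67), in the largest cluster (0.19) and in the second largest monocyte cluster (1.41), Clec4e in resident macrophage-like cells with each library clustered alone (0.78), and Clec4d in the largest monocyte cluster (-0.18). The cause was not tested. Scrublet called 0 WT and 4 KO cells, 0.159% of KO cells, so it did not work as a doublet caller, and the highest 3% of its scores were removed in its place (59 WT and 70 KO cells). With those cells removed, 4 of the 7 lower and 3 of the 3 higher pairs kept the call. Removing shared barcodes removed no cell. No paired analysis was possible because each genotype has 1 library. Depth limits Clec4a1, Clec4a3, Clec4b1, Clec9a and Clec10a in neutrophil-like cells, where each had at most 22 UMIs in both libraries together.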

Other observations

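Eosinophil-like cells, which were shallow at medians of 798.5 UMIs in WT and 971 in KO, carried Clec4d at 240.03 CPM (186 to 304) in WT against 378 CPM (324 to 439) in KO, for a log2 ratio of 0.66 (0.24 to 1.08), and Clec4e at 318 and 406 CPM. Summed neutrophil markers stood at 7257 and 7463 CPM in these cells, with 7 of 8 detected and Ly6g at 0, and neutrophil was the class with the next most raised markers in this cluster (3, as many as eosinophil). Their part in the levels of both lectins was not tested. Clec4a2 stood at 152 and 131 CPM there, with overlapping intervals. Clec4a1 and Clec4a3 stood at 91.8 and 81.2 CPM in WT, from 26 and 23 UMIs, and at 6.45 and 2.15 CPM in KO, from 3 and 1 UMIs, with log2 ratios of -3.83 (-6.20 to -2.12) and -5.24 (-10.60 to -2.62). Summed resident macrophage markers moved the same way in these cells, at 1094 CPM in WT against 174 CPM in KO with 7 of 9 markers detected in both and Cd163 and Folr2 at 0, and their part was not tested.

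Lymphocytes also held UMIs of the neutrophil lectins, given here beside neutrophil markers. WT B cell-like cells had Clec4e at 133 CPM and a neutrophil marker sum of 961 CPM, with 7 of 8 markers detected, and KO B cell-like cells had 5.08 and 17.8 CPM, with 3 of 8 detected. KO T cell-like cells had Clec4d at 43.0 CPM, from 17 UMIs in 4 of 63 cells, and a neutrophil marker sum of 314 CPM, and WT T cell-like cells had 6.40 and 43.9 CPM. Clec4e in T cell-like cells stood at 11.0 CPM in WT against 15.2 CPM in KO, from 12 and 6 UMIs, with an interval of the ratio that includes 0. NK cell-like cells had Clec4e at 46.5 and 16.3 CPM, from 7 and 3 UMIs, and neutrophil marker sums of 19.9 and 59.8 CPM, in the opposite order. Ly6g was at 0 in all 6 of these groups.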
